A study of Mus musculus with 3 samples.

Results

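Autophagy genes encode the machinery that encloses cytoplasm in a double membrane and delivers it to the lysosome. They were followed here in RNA bound to tagged ribosomes of the mouse prefrontal cortex. The members were 40 genes chosen by name for their role in initiation, nucleation, conjugation, cargo recognition or maturation, and all 40 had a row among the 32531 gene symbols of the count tables. The data came from translating ribosome affinity purification (TRAP), in which ribosomes that carry EGFP-tagged Rpl10a are pulled down with anti-EGFP antibodies and their RNA is sequenced. All 3 libraries were purified fractions of untreated adult Slc17a6-TRAP JX883 mice, with 3 mice pooled per library, and they form a single group. The tag was driven by Slc17a6, the gene of a vesicular glutamate transporter, and neither an input fraction nor an untagged control was analysed here. A level is therefore the abundance of a message in the purified RNA, and more cells that carry a message cannot be told apart from more message per cell.

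A starving or stressed cell starts autophagy through the ULK kinase complex, which activates a lipid kinase complex built around Pik3c3 and Becn1. Its lipid product recruits WIPI proteins and ATG2 lipid transfer proteins to the growing membrane, while 2 ubiquitin-like conjugation reactions attach ATG8 proteins (the LC3 and GABARAP families) to it. Cargo receptors such as p62, the product of Sqstm1, tie cargo to the ATG8 proteins. In neurons autophagosomes form largely in distal axons and travel back to the cell body, and loss of core genes such as Atg5 or Atg7 in the mouse nervous system is known to cause neurodegeneration.

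Library totals over named genes ran from 8964137 to 12648577 counts. Marker genes of several cell types were described, and without an input fraction their enrichment could not be assessed. All 5 glutamatergic neuron markers were expressed, meaning that each library gave them 1 CPM (counts scaled to a library total of 1e+06 over named genes) or more. Their summed level was 4082.5 to 4586.9 CPM, of which Camk2a had a mean of 2884 CPM. Slc17a6 itself had 831 ± 97.4 CPM (SD, n = 3). Markers of other cells were also present. All 3 GABAergic neuron markers were expressed, at a summed level of 703 to 777 CPM, of which Gad2 had 626 ± 45.2 CPM. All 4 astrocyte and all 4 oligodendrocyte markers were expressed, with summed levels of 77.0 to 118 CPM and 251 to 383 CPM, as did 3 of 4 microglia markers (summed level 16.7 to 24.9 CPM, with C1qa at 0 counts) and 1 of 3 endothelial markers (2.23 to 3.79 CPM). Autophagy genes are active in all of these cells, and which cells supplied their messages was not tested.

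Autophagy messages were broadly present and of moderate abundance. Of 40 members 39 were expressed, where 37.9% of all gene symbols, and 67.0% of symbols with a count, were. The median member had a mean level of 49.8 CPM, against 24.0 CPM for all expressed genes. Per length, in TPM (counts divided by the merged exon length of each gene, then scaled to the same total in each library), the medians were 36.3 and 26.1. A mean of 100 CPM or more was reached by 9 members, against 17.4% of expressed genes. Together the members took 0.363%, 0.346% and 0.325% of counts in replicates 1, 2 and 3.

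**Figure D1:**
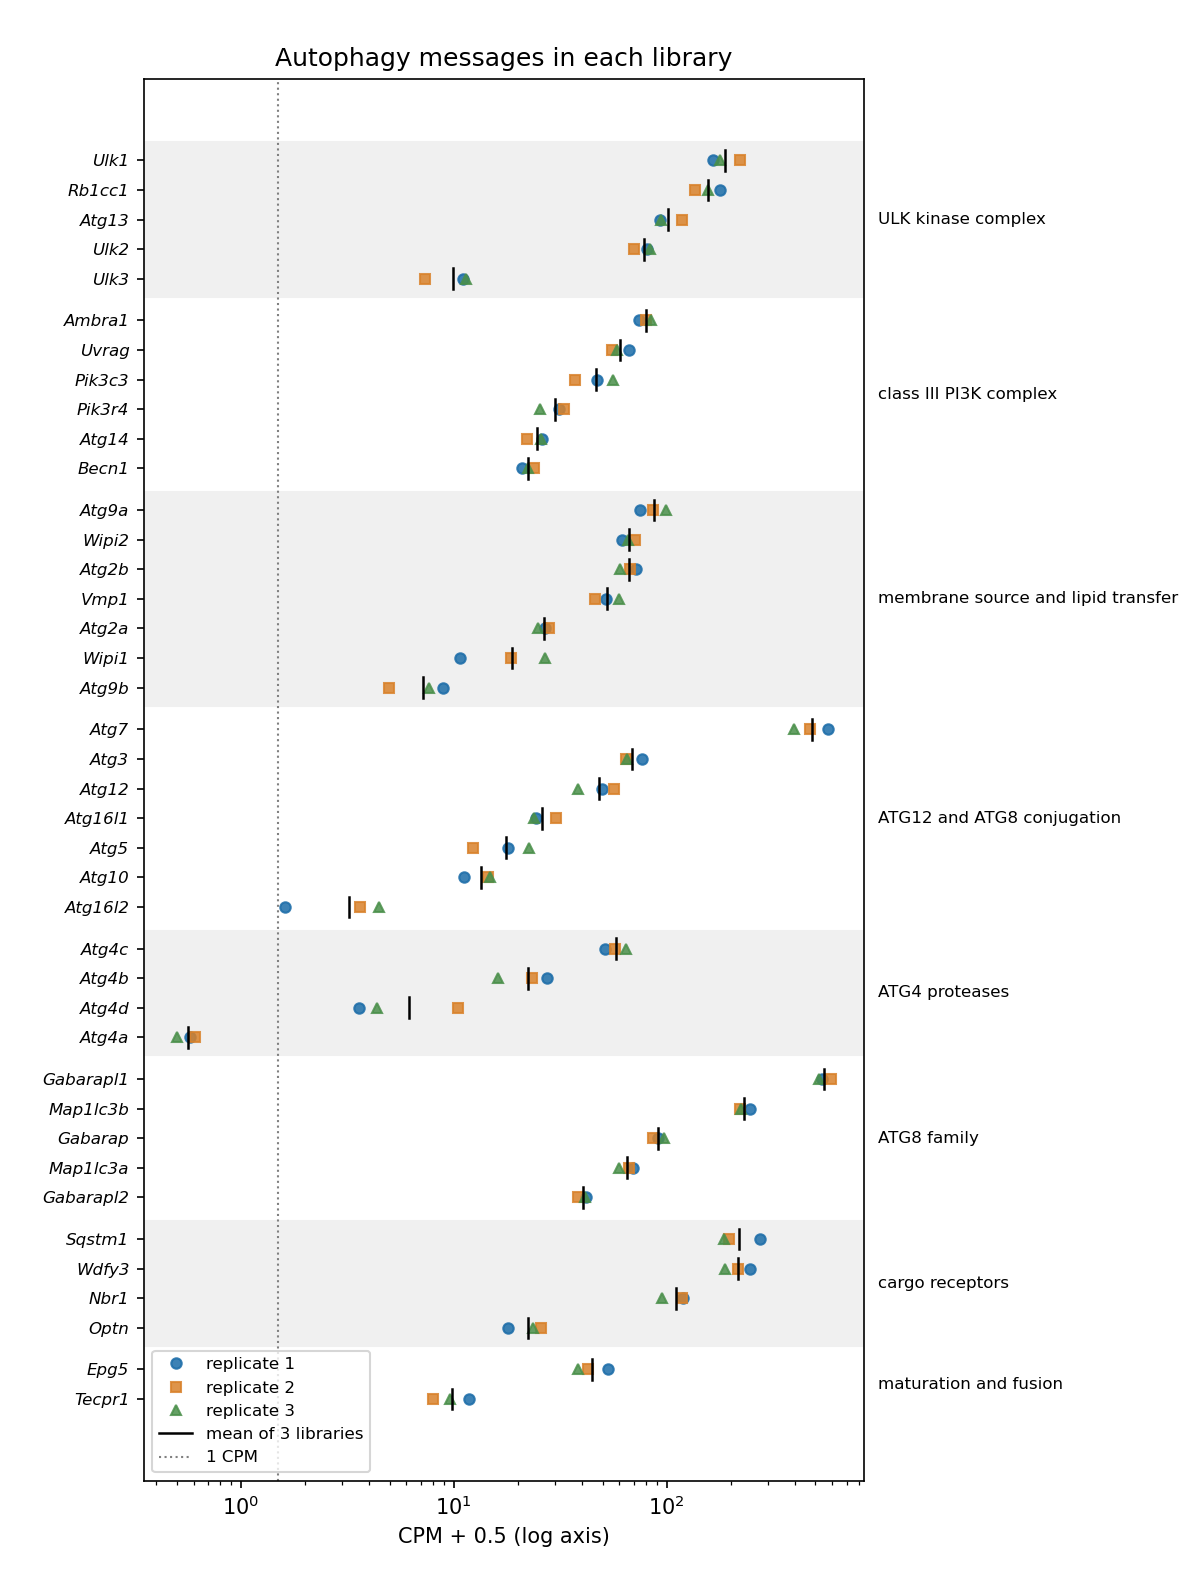
Level of each of the 40 autophagy genes, as CPM + 0.5 on a log axis, grouped by role; coloured points are the 3 libraries and black bars their mean. Gabarapl1 and Atg7 lie farthest to the right, at means of 550.2 and 480.1 CPM, and Atg4a alone lies left of the dotted line at 1 CPM.

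The ATG8 family, the small ubiquitin-like proteins that are anchored in the autophagosome membrane, held the member with the highest level per length. Gabarapl1 (ENSMUSG00000030161.8, mm10 chromosome 6, 129533160 to 129542346) had 539, 593 and 519 CPM in replicates 1, 2 and 3. The libraries lay within 1.14-fold of each other. Of its exonic bases, 28.3% are shared with 1700101I11Rik on the opposite strand. Map1lc3b, which encodes the LC3B protein widely used as an autophagosome marker, had 247, 221 and 222 CPM. Gabarap itself had 90.6, 85.3 and 97 CPM, Map1lc3a (LC3A) had 68.7, 66.0 and 59.0 CPM, and Gabarapl2 had 41.5, 37.7 and 41.0 CPM. These 5 genes were among the steadiest members, with coefficients of variation of 5.08% to 7.78%, where the median of all 40 was 13.6%.

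Per length with merged exons, Gabarapl1 stood at 1337 ± 95.3 TPM (SD, n = 3), rank 75 of all genes. It stood above Map1lc3a at 267 ± 20.4, Gabarap at 241 ± 15.4, Map1lc3b at 150 ± 9.19 and Gabarapl2 at 84.2 ± 4.10 TPM. The libraries of Map1lc3a and Gabarap, neighbours in this order, overlapped, at 245 to 284 and 227 to 258 TPM. The 5 genes took 28.3% ± 0.985 of the members' counts and, per length, 51.0% ± 1.43 of their summed TPM. From mean levels that share was 48.1% with the longest coding transcript and 67.8% with the coding length. Gabarapl1 exceeded Gabarap by 2.47 ± 0.19 on the log2 scale, or 5.53-fold, and Gabarapl2 by 3.98 ± 0.17, or 15.8-fold. The 3 GABARAP genes together exceeded both LC3 genes together by 2.0 ± 0.10 log2 units, or 3.98-fold. Each of these differences had the same direction in 3 of 3 libraries. The transcript of Gabarapl2 aligned with the processed pseudogenes Gm5829, Gm6051 and Gm3724 over 349 to 351 bases, at 96.6% to 99.4% identity. Reads placed at several positions were not assigned to genes. How many of them came from Gabarapl2 was not tested, so its level may be understated and the ratio to it overstated.

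All comparisons between members were made within a library and tested by exact permutation of the signs of the 3 differences, two-sided. The smallest p that this exact permutation allows is 0.25 (adjusted p = 0.263 over 21 comparisons). No comparison could therefore pass 0.05, and each difference is given with its standard deviation over the libraries. Of 20 comparisons other than that with Atg4a, 19 had 1 direction in 3 of 3 libraries with p = 0.25 in the exact permutation test, and 18 had a mean over 2 standard deviations. Gene length matters for such comparisons, because a gene's merged exons can be much longer than the message it makes. Lengths of the longest coding transcript and of the coding sequence alone were therefore also used, and 18 of the 20 kept their sign with all 3 lengths.

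The exceptions were the LC3 pair and the pair Atg12 and Atg5. With merged exons Map1lc3a exceeded Map1lc3b by 0.83 ± 0.09 log2 units, but it lay below it by 0.59 with the longest coding transcript (log2 difference -0.59) and by more with the coding length (-1.32). The merged exons of Map1lc3b span 7517 bases and its longest coding transcript 2633, against 1181 and 1112 for Map1lc3a. The order of the LC3 genes per molecule is thus not set by these data, nor is the place of Gabarap beside them. With the longest coding transcript Map1lc3b stood at 299 ± 17.5 TPM, above Gabarap at 231 ± 15.0 and Map1lc3a at 199 ± 14.7. With coding lengths these values were 546 ± 32.2, 319 ± 19.9 and 219 ± 16.7 TPM. Among the GABARAP genes, and for their sum, the choice mattered less. The excess of Gabarapl1 was 2.16 to 2.59 log2 units over Gabarap and 3.65 to 3.98 over Gabarapl2 with the 3 lengths. That of the summed GABARAP over the summed LC3 genes was 1.44 to 2.0.

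**Figure D2:**
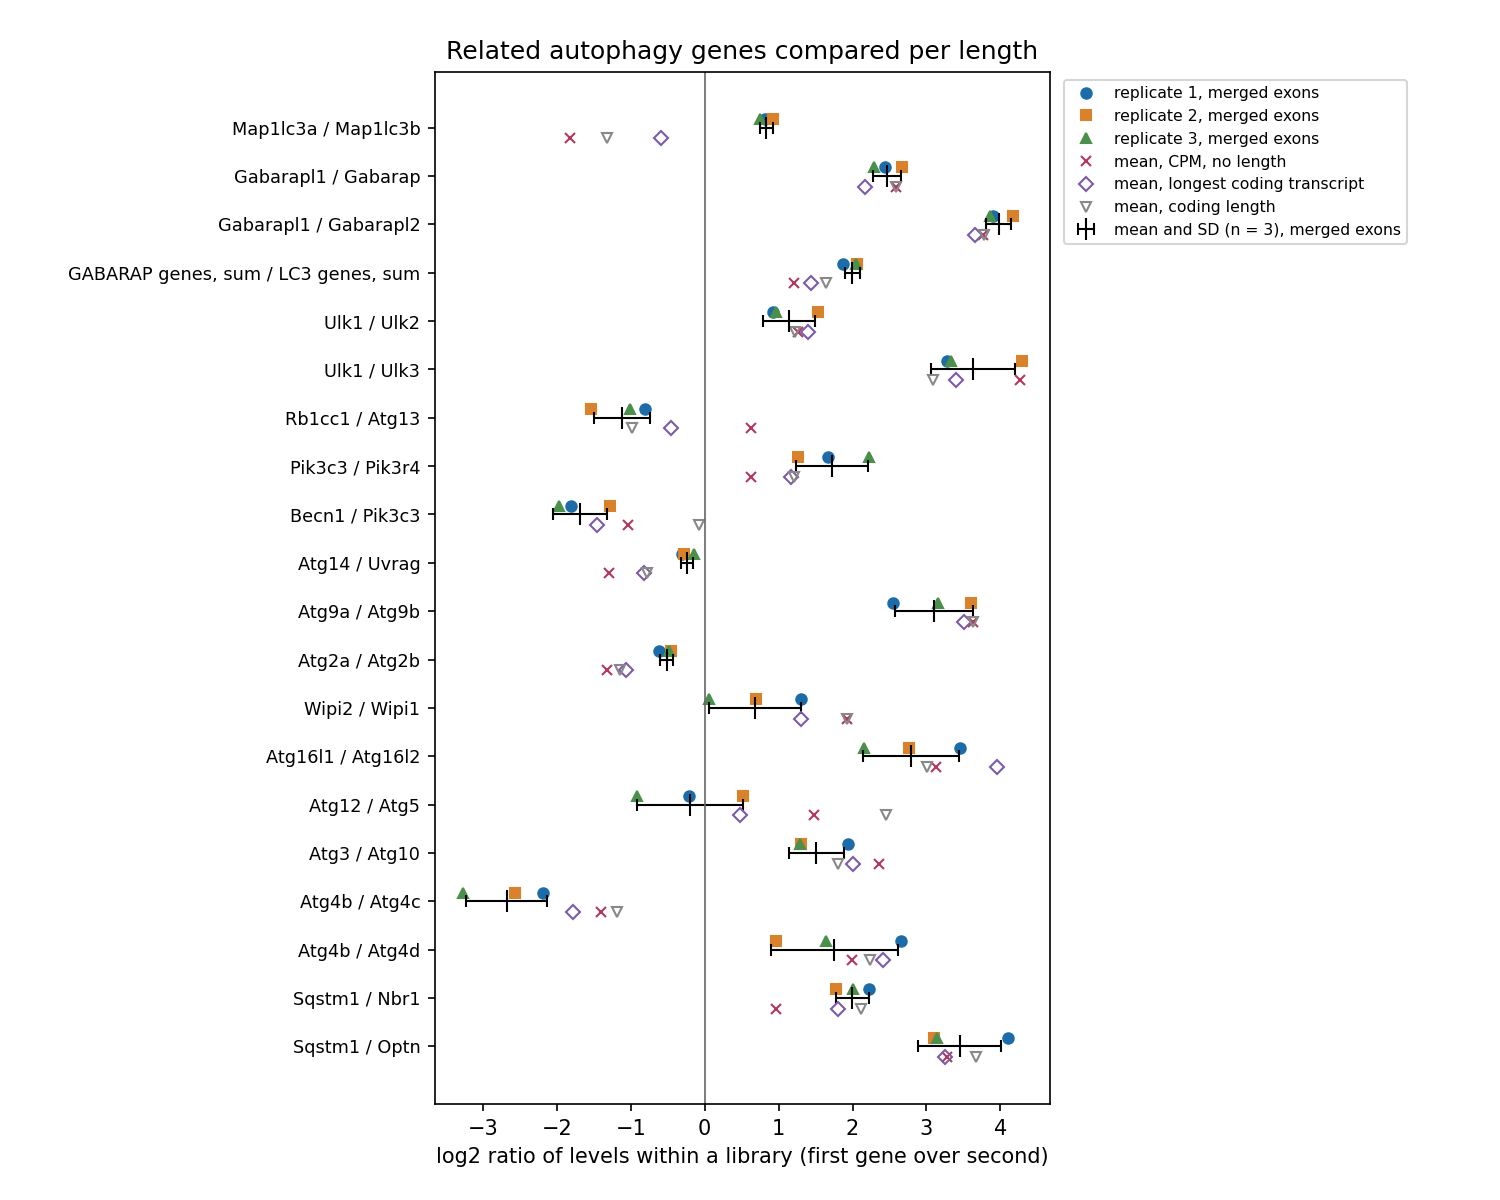
Log2 ratio of the levels of related autophagy genes within a library; filled points are the 3 libraries and black bars mean and SD from TPM with merged exon lengths, and open symbols and crosses are means with other lengths or with CPM. Map1lc3a over Map1lc3b lies right of 0 with merged exons (0.83) and left of it with the longest coding transcript (-0.59), while Gabarapl1 over Gabarap stays right of 0 throughout.

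Among the conjugation genes, Atg7 was the highest per length. It encodes the E1-like enzyme that activates both ATG12 and the ATG8 proteins, and it lies on chromosome 6 (114643097 to 114860614, ENSMUSG00000030314.16). Its level was 572, 473 and 395 CPM in replicates 1, 2 and 3. Per length Atg7 stood at 337 ± 61.4 TPM, rank 469 of all genes and above Atg3 (106 ± 10.6 TPM), the E2-like enzyme that passes ATG8 proteins to their lipid. Atg10, the E2-like enzyme for ATG12, stood at 37.0 ± 5.72 TPM, and Atg3 exceeded it by 1.51 ± 0.37 log2 units, or 2.85-fold.

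ATG12, once joined to ATG5, binds ATG16L1 to form the complex that directs ATG8 proteins to the membrane. Atg12 had 49.1, 55.9 and 38.0 CPM and Atg5 had 17.4, 11.8 and 22.1 CPM in replicates 1, 2 and 3. Per length they did not differ beyond their spread, at 30.2 ± 5.74 and 35.5 ± 10.6 TPM (log2 difference of Atg12 from Atg5 -0.20 ± 0.72, exact sign-flip permutation p = 0.75, adjusted p = 0.75). The sign of that difference turned with the other lengths, to 0.48 with the longest coding transcript and 2.45 with the coding length. Atg16l1 had 23.7, 29.7 and 23.4 CPM, whereas its paralog Atg16l2 had 1.11, 3.12 and 3.95 CPM. Per length the excess of Atg16l1 over Atg16l2 was 6.92-fold (2.79 ± 0.65 log2 units), seen in each of the 3 libraries.

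The ATG4 proteases cut ATG8 proteins before conjugation and release them from membranes later. Atg4c had 50.9, 56.6 and 63.7 CPM, Atg4b had 26.8, 22.9 and 15.6 CPM and Atg4d had 3.10, 9.93 and 3.87 CPM. Per length Atg4c was the highest of them at 83.3 ± 9.54 TPM. The log2 difference of Atg4b from Atg4c was -2.68 ± 0.55, negative in each library, and -1.18 with coding lengths. Atg4b exceeded Atg4d by 1.76 ± 0.85 units. Atg4d was the member with the widest spread among those tested, at a coefficient of variation of 66.4%, with replicate 2 above the other libraries. Of its exonic bases, 19.3% are shared with Kri1 on the opposite strand.

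Atg4a was the only member below 1 CPM, with 1, 1 and 0 counts in replicates 1, 2 and 3. A count of 0 allows up to 3 counts, or 0.238, 0.335 and 0.237 CPM in these libraries, for counting error only, because amplified reads that carry no molecular identifier may stem from the same molecule. All 3 values are at or under that limit. Atg4a lies on the X chromosome (140956907 to 141164270), and a retrogene, Atg4a-ps, lies on chromosome 3 (103643954 to 103646068). The aligned transcripts of the pair were identical at 2100 of 2115 bases, or 99.3%, with 15 substitutions and 7 identical stretches of 100 bases or more, the longest of 559 bases. Coding bases 97 to 156 of Atg4a, taken from the GENCODE M21 transcripts, are shown because they hold a pair of the few differences, which stand in capitals:

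Atg4a: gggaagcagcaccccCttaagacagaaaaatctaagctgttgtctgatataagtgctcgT

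Atg4a-ps: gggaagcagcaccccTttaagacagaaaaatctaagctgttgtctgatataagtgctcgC

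Reads placed at more than 1 position were not assigned to genes, and they made up 13.3% of all counts. How many of them came from Atg4a was not tested, so its level is uncertain, and no ratio to Atg4b is given.

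Among initiation genes Ulk1, the kinase that nutrient and energy sensors act on (chromosome 5, 110784488 to 110810097), was the highest with merged exons at 141 ± 22.3 TPM. With coding lengths Atg13 stood above it, at 80.4 ± 11.6 against 72.9 ± 11.7 TPM, within their spread. The level of Ulk1 was 165, 220.4 and 177 CPM in replicates 1, 2 and 3, against 80.0, 69.5 and 83.4 CPM for its paralog Ulk2 and 10.6, 6.80 and 10.9 CPM for the more distant Ulk3. Per length the libraries of Ulk1 lay at 124 to 167 TPM and did not overlap those of Ulk2, at 57.0 to 68.3 TPM, or Ulk3, at 8.03 to 12.9 TPM. Per length Ulk1 exceeded Ulk2 by 1.14 ± 0.35 log2 units, or 2.20-fold, and Ulk3 by 3.63 ± 0.57, or 12.4-fold. Of its partners, the scaffold gene Rb1cc1 (FIP200) stood at 177, 135 and 155 CPM and the regulatory subunit gene Atg13 at 92.6, 117 and 93.1 CPM. Rb1cc1 is the longer gene, and per length its log2 difference from Atg13 was -1.12 ± 0.37, which was -0.45 with the longest coding transcript.

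Genes of the class III PI3-kinase complex, which makes the lipid mark of the forming autophagosome, stood at mean levels of 14.9 to 63.2 TPM. The catalytic subunit gene Pik3c3 (VPS34) had 46.5, 36.5 and 55.7 CPM, and its scaffold Pik3r4 (VPS15) had 30.9, 32.4 and 25.0 CPM. Pik3c3 exceeded Pik3r4 per length by 1.72 ± 0.48 log2 units. Becn1 (Beclin 1), the regulatory subunit, had 20.4, 23.3 and 21.9 CPM, and with merged exons it stood at 15.1 ± 1.05 TPM beside 14.9 ± 1.97 TPM for Pik3r4. The pair stood at 17.2 ± 1.23 and 21.2 ± 2.78 TPM with the longest coding transcript, and at 20.1 ± 1.45 and 8.90 ± 1.19 TPM with coding lengths. The log2 difference of Becn1 from Pik3c3 was -1.69 ± 0.36 with merged exons, but -0.07 ± 0.36 with coding lengths, where the exact permutation p was 0.75. Of the exonic bases of Becn1, 43.9% are shared with Cntd1 on the opposite strand, and reads there may not have been assigned to either gene.

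ATG14 and UVRAG bind the complex as alternatives, the former for autophagosome formation and the latter for endosomal and later steps. Atg14 had 25.6, 21.6 and 25.1 CPM and Uvrag 66.1, 54.9 and 58.0 CPM. Per length the pair was close, at 27.3 ± 2.38 and 32.3 ± 3.03 TPM, a log2 difference of -0.24 ± 0.09 in 3 of 3 libraries that was -0.82 with the longest coding transcript. Ambra1, a positive regulator of Beclin 1, had 74.0, 79.4 and 84.0 CPM. With merged exons it stood at 63.2 ± 4.12 TPM, the highest of the group, but with coding lengths it stood at 25.0 ± 1.66 TPM, below Uvrag at 35.1 ± 3.20 TPM. Of the exonic bases of Uvrag, 17.6% are shared with Gm45187.

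Genes of membrane supply and lipid transfer include the paralogs Atg9a and Atg9b, which differed widely. Atg9a, the scramblase whose vesicles seed the autophagosome, had 74.9, 85.7 and 98.7 CPM, and Atg9b had 8.42, 4.46 and 7.19 CPM. Per length Atg9a exceeded Atg9b by 3.10 ± 0.53 log2 units, or 8.60-fold, although 32.6% of its exonic bases are shared with other annotated genes. The lipid transfer genes Atg2a and Atg2b were nearer to each other, at 26.1 ± 1.62 and 65.9 ± 5.49 CPM and, per length, at 16.6 ± 1.04 and 24.0 ± 1.95 TPM (log2 difference -0.51 ± 0.09, and -1.15 with coding lengths). Vmp1, an endoplasmic reticulum scramblase, stood at 51.3, 45.5 and 59.1 CPM.

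The WIPI proteins read the lipid made by Pik3c3, and WIPI2 recruits the ATG16L1 complex. Wipi2 was steady at 61.5, 70.7 and 65.5 CPM, whereas Wipi1 (chromosome 11, 109573331 to 109611967) had 10.2, 18.1 and 26.3 CPM in replicates 1, 2 and 3. Per length Wipi2 exceeded Wipi1 by 1.30, 0.70 and 0.06 log2 units in these libraries, so that the pair was level in replicate 3. The mean difference of 0.69 ± 0.62 was 1.0 without replicate 3, 0.38 without replicate 1 and 1.93 with coding lengths.

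Among cargo receptors Sqstm1 (chromosome 11, 50199366 to 50210827) was the highest per length with each of the 3 lengths, and it had 273, 196 and 186 CPM. Nbr1, a related receptor, had 119, 117 and 94.4 CPM, and Optn (optineurin), a receptor of damaged mitochondria and bacteria, had 17.5, 25.2 and 23.2 CPM. Per length Sqstm1 exceeded Nbr1 by 2.0 ± 0.23 log2 units, or 4.0-fold, and Optn by 3.45 ± 0.56, or 10.9-fold, in 3 of 3 libraries. With the 3 lengths these differences were 1.81 to 2.12 and 3.26 to 3.67. Of the exonic bases of Sqstm1, 17.3% are shared with Mrnip. Wdfy3 (ALFY), a very large adaptor of protein aggregates, had 245, 215 and 188 CPM, and stood at 68.8 ± 8.94 against 318 ± 68.8 TPM per length.

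The 2 maturation genes were Epg5 and Tecpr1. Epg5, a tether that joins autophagosomes to late endosomes and lysosomes, had 52.5, 42.3 and 38.0 CPM, and Tecpr1, which binds the conjugated ATG12 and ATG5 on lysosomes, had 11.3, 7.47 and 9.09 CPM. Per length they stood at 21.6 ± 3.56 and 3.55 ± 0.720 TPM.

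Variation between the libraries was tested over all genes with the goodness of fit of a single level in edgeR. The spread allowed to a gene was estimated from genes of like level in these same libraries. A call therefore means more spread than such genes had, and the lack of a call does not show that a level was steady. Of 39 members tested, 0 varied at a Benjamini-Hochberg adjusted p of 0.05, where 0.244% of 14774 genes did (36 genes), and 2 members had an unadjusted p under 0.05, where 7.22% of genes did. The count was also 0 in limma, which called 0.0812% of genes, and with the DESeq2 dispersion trend, which called 0.190%. In each of these 3 members (Atg7, Sqstm1 and Wipi1) had an unadjusted p under 0.05, where 4.88% of genes in limma and 4.36% with the DESeq2 trend did. Wipi1 had the smallest p (unadjusted p = 0.0155, adjusted p = 0.497 in edgeR), with a 2.54-fold range and its highest level in replicate 3. Sqstm1 followed (unadjusted p = 0.0384, adjusted p = 0.626 in edgeR), highest in replicate 1 and within a 1.46-fold range. Neither passed the test.

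The summed astrocyte level was, like Wipi1, lowest in replicate 1 and highest in replicate 3, at 77.0, 86.7 and 118 CPM in replicates 1, 2 and 3. Of its 4 markers, Gfap had 5.0, 12 and 22.3 CPM and Aqp4 had 16.9, 25.7 and 29.6 CPM, in the order of Wipi1. Slc1a3 had 46.9, 43.8 and 62.0 CPM and Aldh1l1 had 8.10, 5.13 and 3.79 CPM, in other orders. Oligodendrocyte markers summed to 251, 383 and 365 CPM and microglia markers to 16.7, 24.9 and 22.8 CPM. Their part in the spread of Wipi1 was not tested. Across the 39 expressed members, after TMM scaling, the highest level fell in replicate 1 for 16, in replicate 2 for 11 and in replicate 3 for 12. The same counts over all 12321 such genes were 4004, 4225 and 4092, and the members' median deviations from their own mean were 0.04, 0.01 and -0.01 log2 units. The median coefficient of variation was 13.6% for all 40 members, Atg4a included, and 15.8% for the 12321 genes. These sets were not matched for level, with medians of 49.8 and 24.0 CPM.

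**Figure D3:**
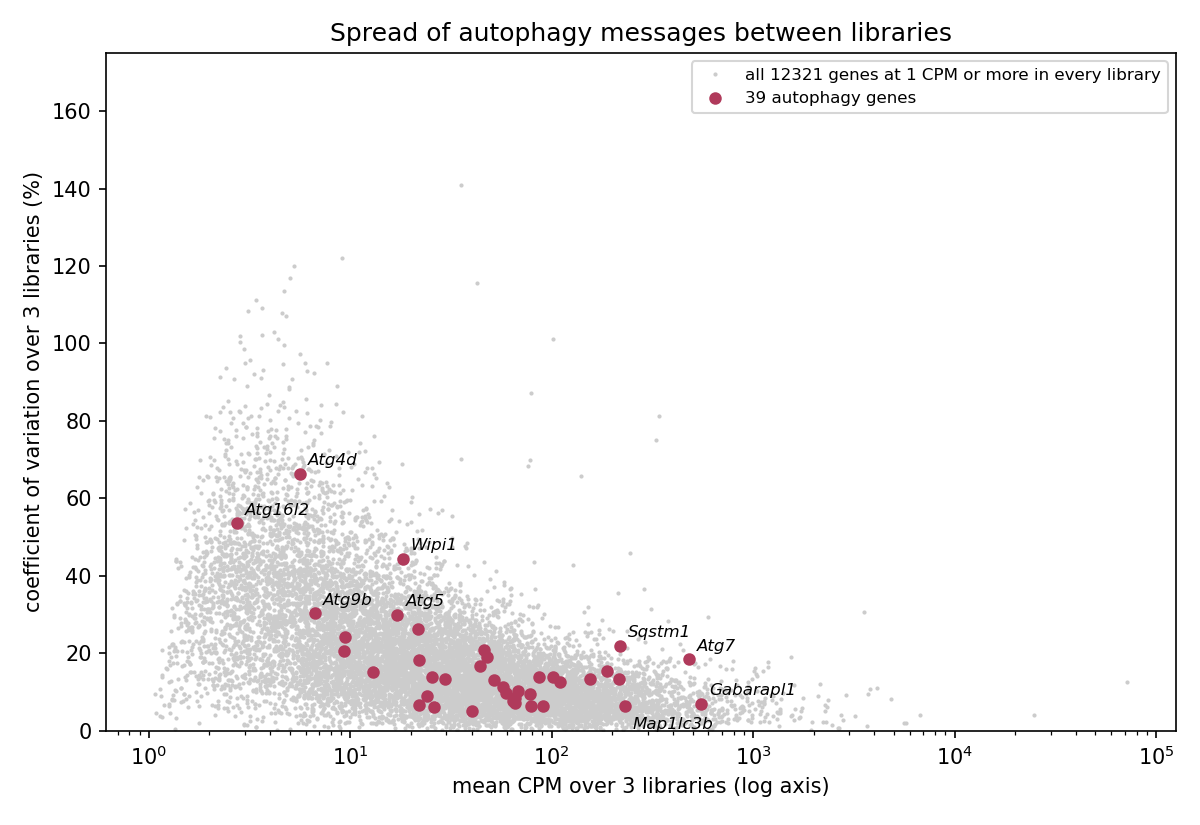
Coefficient of variation over the 3 libraries against mean CPM (log axis) for all 12321 expressed genes (grey) and the 39 autophagy genes among them (red). Gabarapl1 and Map1lc3b lie low at 6.98% and 6.43%, while Atg4d, Atg16l2 and Wipi1 are the widest members at 66.4%, 53.5% and 44.4%.

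Other genes of the pathway were described through lists chosen by role. Of 11 other core autophagy genes, 11 were expressed, with a median of 40.8 TPM and 27.0 CPM, beside 36.3 TPM and 49.8 CPM for the members. The highest by CPM were Bcl2, whose product restrains Beclin 1, at 92.2 ± 11.3 CPM and Rubcn (Rubicon), a negative regulator of the UVRAG complex, at 87.8 ± 4.76 CPM. The lowest was Nrbf2, a subunit of the ATG14 complex, at 11 ± 1.21 CPM. Of 17 other cargo, mitophagy and ER-phagy receptors, 16 were expressed, with a median of 77.8 TPM. The highest by CPM were the endoplasmic reticulum protein gene Rtn3 at 1691 ± 54.3 CPM and the ubiquitin-binding receptor gene Tax1bp1 at 289 ± 29.9 CPM. With merged exons Rtn3 stood at 1648 ± 57.5 TPM, above the 318 ± 68.8 TPM of Sqstm1, and Tax1bp1 at 142 ± 14.5 TPM. With the longest coding transcript Tax1bp1 and Sqstm1 did not differ beyond their spread, at 302 ± 30.4 and 280 ± 59.6 TPM. Calcoco2 had 0 counts.

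Among fusion genes, Rab7, the small GTPase of late endosomes and lysosomes, stood at 1174 ± 51.1 CPM and per length at 2201 ± 102 TPM, above the 1337 TPM of Gabarapl1. The next by CPM was Vps41, a subunit of the HOPS tethering complex, at 189 ± 12.9 CPM. Vamp8, a SNARE assigned to autophagosome fusion in other cells, had 0.794, 0.781 and 1.03 CPM, and 12 of 13 genes of this list were expressed. Among regulators 12 of 13 were, led by Rheb, the GTPase that activates mTOR, at 128 ± 12.3 CPM and by Prkaa2, a catalytic subunit of AMP-activated kinase, at 99.2 ± 13.6 CPM. The lowest was Tfeb, a transcription factor of lysosomal and autophagy genes, at 0.397, 1.0 and 0.158 CPM, while its relative Tfe3 stood at 45.4 ± 3.86 CPM.

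Routes of degradation downstream and beside autophagy were set next to the members. All 20 lysosomal genes were expressed, with a median of 39.8 TPM, close to the 36.3 TPM of the members. In CPM the medians stood in the other order, at 35.2 for the lysosomal genes and 49.8 for the members. By CPM the lysosomal genes were led by Psap, the precursor of saposins, at 511 ± 32.0 CPM and the protease gene Ctsb at 440.2 ± 7.87 CPM. Cln3 was their lowest at 4.20 ± 1.39 CPM. The order of Psap and Ctsb turned in TPM with coding lengths. All 14 genes of the proteasome core were expressed, with a median of 167 TPM and of 90.3 CPM. By CPM they ran from Psmb7 (185 ± 5.85 CPM) and Psma7 (137 ± 9.50 CPM) down to Psmb3 (27.9 ± 3.61 CPM). The proteasome genes lay within 59.4 to 442 TPM, whereas the autophagy genes other than Atg4a spanned 1.58 (Atg16l2) to 1337 TPM. Of 86 genes tested in these 6 lists, 0 varied between libraries at an adjusted p of 0.05 in edgeR, limma or with the DESeq2 trend. An unadjusted p under 0.05 was found for 2, 2 and 1 of them, against the 7.22%, 4.88% and 4.36% of all genes given above.

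**Figure D4:**
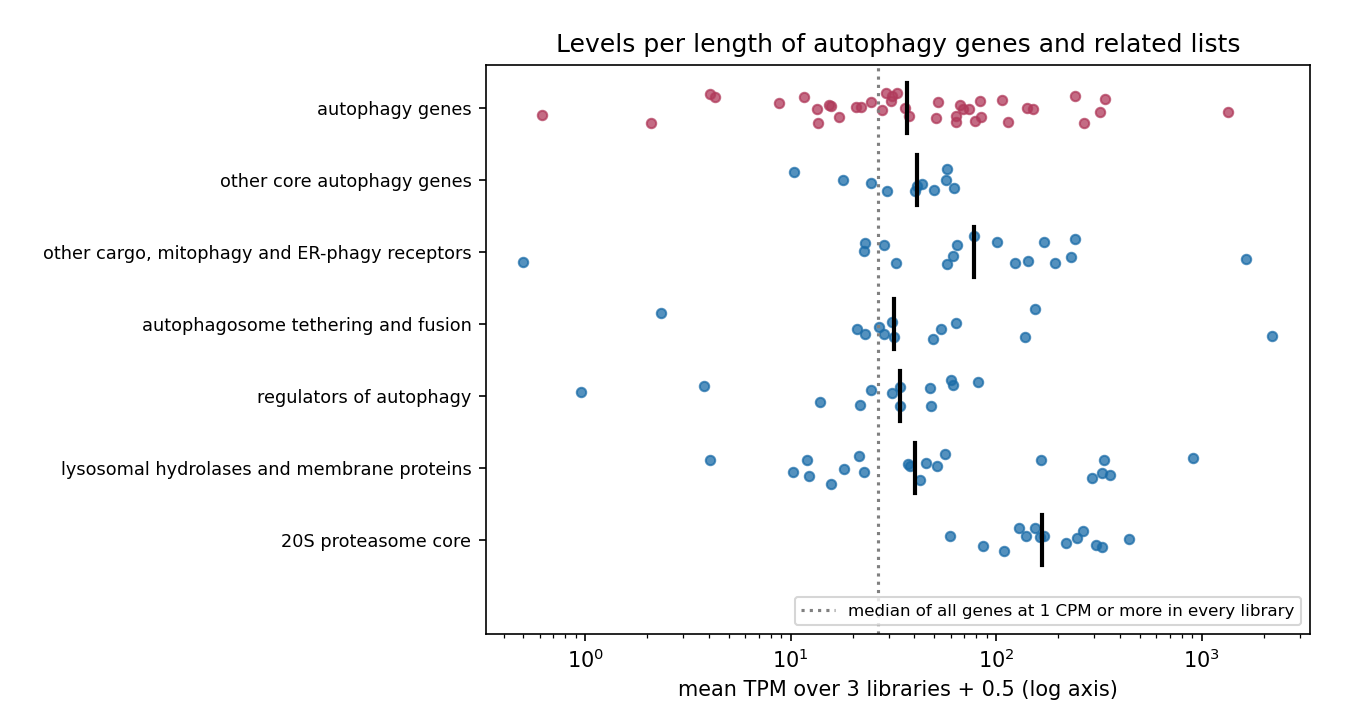
Mean level per length (TPM + 0.5, log axis) of the autophagy genes and of 6 lists of related genes; each point is a gene, black bars are list medians and the dotted line is the median of all expressed genes (26.1 TPM). The proteasome core lies highest as a group (median 167 TPM with merged exon lengths, 90.3 in CPM), and the autophagy genes spread from Atg4a to Gabarapl1.

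Promoter sequences were searched for the E-box word CACGTG, which TFEB and its relatives bind within a longer site. RefSeq promoters (GRCm38.p6, 250 bases before to 50 after the start) were found for 32 of 40 members. The word, which reads the same on both strands, occurred in those of 4 members (Atg3, Atg5, Atg7 and Atg14), or 12.5%, against 8.09% of all genes with a promoter. The longer word GTCACGTG, searched on both strands and containing the first, occurred in 3 members, or 9.38%, against 2.55% of all genes. The palindrome of 10 bases that completes this word on its other side occurred in 0 of 32 members, against 0.37% of all genes. A gene was counted if any of its promoters held the word, and the 32 members had 37 promoters. The CACGTG of Atg7, part of a GTCACGTG, lies within chr6:114670934-114670999. That is inside the annotated gene, which starts at 114643097, so it belongs to an internal start. Atg3 is shown because it alone held the word more than once, starting 94 and 71 bases before the start, on the plus strand at chr16:45158705-45158793, with the words in capitals:

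Atg3: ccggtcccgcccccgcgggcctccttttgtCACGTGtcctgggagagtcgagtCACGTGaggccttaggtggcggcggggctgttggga

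A match is a description of these letters only, and binding was not measured.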

How the data were processed

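RNA-seq of 3 immunopurified libraries was used. The files the authors deposited hold unnormalized whole-number counts for each gene symbol. The submitters' processing notes name STAR 2.0.0e, HTSeq and the build mm10. Neither the annotation nor the strand setting is given in the sources used here. Reads of overlapping genes may therefore not have been told apart. Summary lines without a gene, 27.8% ± 0.56 (SD, n = 3) of the counts, stayed out of library totals and tests.

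CPM used the total of named genes per library, and log2 values a pseudocount of 0.5. TPM used merged exon lengths from GENCODE M21 (mm10), matched by symbol or by an older symbol through RefSeq for 97.1% of expressed genes (1 CPM or more in each library). Near-identical copies were sought with blastn 2.17.0 among GENCODE transcripts at 95% identity over 100 bases or more. Variation between libraries was tested in edgeR 4.0.16 with an intercept-only negative binomial model, TMM normalization and the trended dispersion, by the deviance on 2 degrees of freedom with Benjamini-Hochberg adjustment, for genes with at least 10 counts in 1 library. Alternatives used limma 3.58.1, DESeq2 1.42.0, other filters, lengths and pseudocounts, and leaving out single replicates. Scripts ran in R 4.3.3 and Python 3.11.15.

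The members, lists and comparisons were chosen with earlier results of these data known. The rule for named genes was all 40 members, the 2 highest and the lowest gene of each related list, and any gene of those lists that varied; Tfe3, Retreg1, Npc1, marker genes and the genes that overlap members were named after their values were seen. The labels give 3 mice per library but do not say that the pools were of different animals, so p-values concern only these libraries. Those of the goodness of fit in edgeR set the spread of a gene against that of genes of like level.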

Additional observations from a re-analysis of the deposited data

How the results depend on the processing

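The count of varying members was 0 in every edgeR, limma and DESeq2 setting run and without each replicate (0 to 0), and 39 members were expressed without each replicate (39 to 39), 36 at 5 CPM. The smallest adjusted p of any member ran from 0.186 with a common dispersion (Atg4d) to 0.906 in limma (Atg7), against 0.497 in edgeR with the trend. The number of all genes called was 36 with the trend, 1097 with a common dispersion, 37 with DESeq2 size factors, 28 with the DESeq2 trend, 12 in limma, 26 with no filter, 18 at 1 CPM or more in every library, 18 at an adjusted p of 0.01 and 16 to 21 without a replicate. The median member level of 5.64 log2 CPM became 5.75 with totals without Rn45s, the ribosomal RNA precursor gene, and 5.63 to 5.74 without a replicate. Map1lc3a against Map1lc3b reversed from 0.83 to -1.83 in CPM, -0.59 with the longest coding transcript and -1.32 with the coding length. Rb1cc1 against Atg13 reversed to 0.62 in CPM. Atg12 against Atg5 became 1.48 in CPM, 0.48 with the longest coding transcript and 2.45 with the coding length, and ran from -0.56 to 0.15 without a replicate. By construction these settings use another length or, in CPM, none; the cause of the change without a replicate was not tested. No other comparison between members changed sign under any alternative run. No paired analysis was possible because all 3 libraries form 1 group. The levels of Atg16l2 and Atg4d rest on 14 to 50 and 39 to 89 counts per library, and that of Atg4a on 0 or 1 count, whose cause was not tested.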

Other observations

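In a search for members within 500 kb of each other, 2 pairs were found. Atg13 (chromosome 2, 91674618 to 91710576, minus strand) and Ambra1 (91730134 to 91918849, plus strand), which both act in initiation, point away from each other across 19.6 kb, and stood at 101 ± 14.1 and 79.1 ± 4.98 CPM (SD, n = 3). Becn1 and the receptor gene Nbr1 lie 249.9 kb apart on chromosome 11, at 21.9 ± 1.45 and 110.3 ± 13.8 CPM.

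Retreg1, an ER-phagy receptor gene listed under its older symbol Fam134b, had 83.4, 46.2 and 68.2 CPM in replicates 1, 2 and 3 (unadjusted p = 0.0205, adjusted p = 0.534 in edgeR), and the lysosomal cholesterol transporter gene Npc1 had 41.0, 23.0 and 41.1 CPM (unadjusted p = 0.0488, adjusted p = 0.687 in edgeR). Both were lowest in replicate 2, the library with the fewest counts, and neither passed the adjusted test. Among the receptors and maturation genes of the 40 members, 5 of 6 were highest in replicate 1, and Optn was lowest there. The same held for 16 of all 39 expressed members and for 4004 of 12321 expressed genes. This grouping was noticed after the values were seen, and none of its genes varied at an adjusted p of 0.05 in edgeR.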
